A study of Mus musculus with 33 samples.

Results

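The cytosolic sensors of RNA and DNA, with the adaptors that carry their signal and the enzymes that remove their ligands, were followed in whole kidneys of BWF1 mice given an adenovirus that expresses interferon-alpha (Adv-IFNα). The group held 9 genes, Ifih1, Dhx58, Zbp1, Eif2ak2, Mavs, Sting1, Ifi204, Trex1 and Samhd1, of 17097 genes that could be named on the array. Members were taken by symbol, and they were chosen with earlier results of these data known. A member was represented by the brightest probe set, by mean over all arrays, among those paired with its symbol alone. In all, 13 probe sets were paired with the 9 genes, and Sting1 was matched through its older name. All 33 mice were females of the lupus-prone NZB X NZW F1 (BWF1) cross. The untreated group held 3 mice, and 5 mice were taken at each of weeks 1, 2, 3, 5, 7 and 9 after an intravenous injection of Adv-IFNα. The labels list no mice given an empty vector and do not say which of the weeks the untreated mice match in age, so an effect of the vector or of age cannot be told apart from that of interferon-alpha. Each kidney gave 1 Affymetrix array, and each level below is a log2 value after RMA normalization.

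The genes fall into roles. Ifih1 encodes MDA5, a helicase that binds long double-stranded RNA in the cytosol, and Dhx58 encodes LGP2, a related RNA-binding protein that regulates MDA5 and RIG-I signalling. Eif2ak2 encodes PKR, a kinase that halts translation once double-stranded RNA binds it, and Zbp1 senses left-handed Z-form nucleic acid and can start cell death. Ifi204 belongs to the HIN-200 family of DNA-binding proteins. Mavs, on mitochondria, is the adaptor of the RIG-I-like receptors, and Sting1, on the endoplasmic reticulum, is the adaptor of cytosolic DNA sensing. Trex1 degrades DNA in the cytosol, and Samhd1 hydrolyses deoxynucleotides, and loss of either in humans causes an interferon-driven disease. Many sensors are themselves induced by interferon through the ISGF3 complex, which binds the interferon-stimulated response element (ISRE) in promoters. In lupus nephritis, self nucleic acid and the interferon it elicits are thought to feed this loop.

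Promoter sequence from RefSeq (build GRCm38.p6), covering 250 bases before to 50 bases after a gene's start, was at hand for 5 of the 9 members, Ifih1, Eif2ak2, Mavs, Trex1 and Samhd1, in 6 windows. Zbp1, Dhx58 and Ifi204 had no window, and the chromosome of Sting1 was left out of the search for the members. The windows were searched on both strands for an ISRE core, written GAAANNGAAA, and for an interferon-gamma-activated site, written TTCNNNGAA. The stretches around the matches are shown because interferon acts on genes through these elements. Capitals mark the match.
Ifih1, ISRE core: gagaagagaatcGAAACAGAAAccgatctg
Eif2ak2, ISRE core: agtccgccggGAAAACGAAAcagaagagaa
Eif2ak2, gamma-activated site: cctgcagagctTTCCCAGAAtggaagccag
Samhd1, gamma-activated site: aacaccaccctTTCGGAGAAacacaagggc
The ISRE core matches began at base 33 (Ifih1) and base 19 (Eif2ak2) counted from the start, on its transcribed side, and the shown stretches lay at chr2:62646206-62646235 and chr17:78882535-78882564, both on the minus strand. The gamma-activated matches began 178 bases (Eif2ak2, chr17:78882732-78882761, minus strand) and 235 bases (Samhd1, chr2:157135313-157135342, minus strand) before the start. An ISRE core was present in 3.44% of all 32851 promoter windows, and a gamma-activated site in 8.3% of them. Neither pattern was found in the windows of Mavs or Trex1, and that of Samhd1 held no ISRE core. A match is a description of the letters and not evidence that a factor binds there.

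The 33 arrays were closely alike, with correlations between pairs from 0.965 to 0.994 over all probe sets. RNA integrity was read from the beta-actin probe sets, whose 3′ signal exceeded the 5′ signal by 1.57 ± 0.16 log2 units (SD, n = 3) without treatment and by 1.95 ± 0.11 (SD, n = 30) after Adv-IFNα (exact two-sided permutation test, p = 3.67e-04). For Gapdh the same differences were 1.51 and 1.52. The beta-actin value thus moved with treatment in every comparison with untreated kidneys, and its effect is given where it changed a call. Kidney origin was plain from the tubular marker Cubn, whose mean lay at the 99.5th percentile of probe sets. The 6 weekly comparisons share the same 3 untreated arrays, and the spread of untreated kidneys was wide for several members. Certain kidneys were low for many members at once. Untreated replicate 3 was the lowest of its group in 6 of the 9 members, week 7 replicate 4 in 7 and week 9 replicate 2 in all 9. Without week 7 replicate 4, 8 members were called at week 7, and without week 9 replicate 2, 7 were called at week 9.

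Treated kidneys carried higher levels of most of the sensors from the first week on. Ifih1, Dhx58, Zbp1, Eif2ak2, Ifi204 and Samhd1 all rose at weeks 1, 2 and 3, which made 6 of the 9 members at each of these weeks (limma, adjusted p below 0.05). Over all 45037 probe sets, 1.00% rose at week 1, 0.877% at week 2 and 1.07% at week 3. At week 5, 5 of the 9 rose, against 1.85% of probe sets. At week 7, 7 of the 9 rose, with Trex1 added, against 9.85% of probe sets. At week 9, 7 of the 9 rose, with Sting1 added in place of Trex1, against 6.41% of probe sets. No member fell in any week, while 1.11%, 5.82% and 7.53% of probe sets fell at weeks 5, 7 and 9. The median change of the 9 members was 1.70 at week 1, 1.36 at week 2, 1.42 at week 3, 1.28 at week 5, 1.86 at week 7 and 1.44 at week 9 on the log2 scale, and that of all probe sets lay between -0.06 and 0.02 in these weeks. In whole-kidney RNA, a change in the number of cells that express a gene cannot be told apart from a change of RNA per cell.

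**Figure D1:**
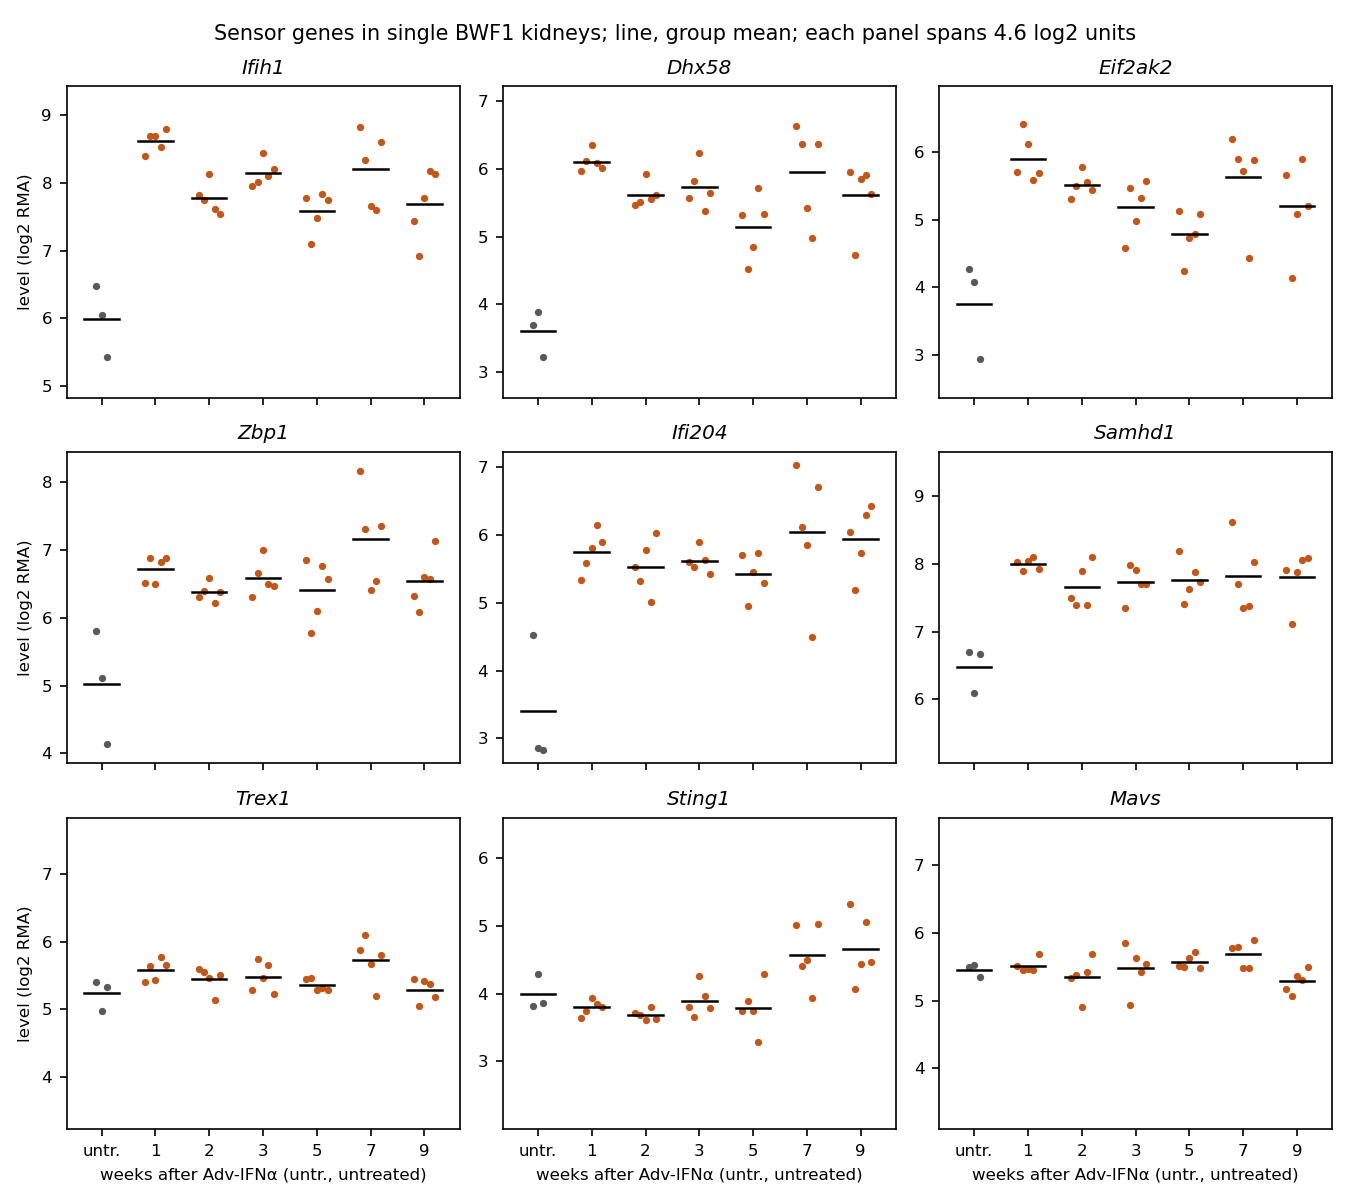
Level of each of the 9 genes (y axis, log2 RMA value) in every kidney, by group (x axis: untreated, then weeks 1, 2, 3, 5, 7 and 9), with a line at the group mean; all panels span the same number of log2 units. The 30 treated kidneys lie above the highest untreated kidney for Ifih1, Dhx58 and Samhd1, whereas Mavs runs from 4.91 to 5.89 in treated kidneys and Sting1 is higher at weeks 7 and 9.

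Among the RNA sensors, Ifih1 (probe set 1426276_PM_at) read 5.43, 6.04 and 6.48 in the untreated kidneys. At week 1 it read 8.40, 8.53, 8.69, 8.70 and 8.80. None of the 30 treated kidneys, from 6.92 to 8.83, came as low as the highest untreated kidney. The change was 2.64 ± 0.25 (SE) at week 1 (adjusted p = 1.34e-08), or 6.23-fold. It was 1.79 at week 2, 2.16 at week 3, 1.60 at week 5, 2.22 at week 7 and 1.70 at week 9, each with the same SE, since the model shares its variance, and with adjusted p of at most 0.000215. The lowest mean was thus at week 5 and the highest at week 1, and every week stayed at least 3.04-fold above untreated.

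Dhx58 (1451426_PM_at) had its highest mean at week 1 as well, although without week 7 replicate 4 the change at week 7 (2.60) was above that of week 1. It read 3.22, 3.69 and 3.89 in untreated kidneys and 5.97, 6.01, 6.09, 6.11 and 6.36 at week 1. The groups were separate, as all 30 treated kidneys (4.52 to 6.63) lay above the untreated ones. The change was 2.51 ± 0.29 at week 1 (5.68-fold, adjusted p = 3.79e-07), then 2.01, 2.13, 1.55, 2.35 and 2.01 at weeks 2, 3, 5, 7 and 9, with adjusted p of at most 0.00163. At week 7 the 5 kidneys ran from 4.97 to 6.63, a spread (SD 0.71) several times that of week 1 (SD 0.15), with replicate 4 the lowest.

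Eif2ak2 (1440866_PM_at), the kinase, read 2.94, 4.07 and 4.27 in untreated and 5.58, 5.68, 5.70, 6.12 and 6.41 in week 1 kidneys. Here 28 of the 30 treated kidneys exceeded the highest untreated kidney, and the exceptions were 1 kidney each at weeks 5 (4.24) and 9 (4.14). The change was 2.14 ± 0.33 at week 1 (4.40-fold, adjusted p = 0.000104), 1.75 at week 2, 1.42 at week 3, 1.86 at week 7 and 1.44 at week 9, all called. At week 5 it was 1.03 and missed the threshold (adjusted p = 0.0825). The calls at weeks 2, 3 and 9 were less secure. They were lost when untreated replicate 3, the kidney at 2.94, was left out (changes of 1.34, 1.01 and 1.03, adjusted p = 0.0735, 0.219 and 0.0685) and when the beta-actin value entered the model (changes of 1.76, 1.44 and 1.45, adjusted p = 0.0666, 0.132 and 0.0778). The call at week 3 was also lost without week 3 replicate 5 (change 1.33, adjusted p = 0.0543).

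Zbp1 (1419604_PM_at), the Z-form nucleic acid sensor, was uneven among untreated kidneys, at 4.13, 5.12 and 5.80. It read 6.50, 6.51, 6.83, 6.88 and 6.88 at week 1, and 29 of 30 treated kidneys lay above 5.80, the exception being week 5 replicate 2 at 5.78. The change was 1.70 ± 0.30 at week 1 (3.26-fold, adjusted p = 0.000881), 1.36 at week 2, 1.57 at week 3, 1.40 at week 5, 2.14 at week 7 and 1.53 at week 9. Its highest mean stood at week 7, where replicate 1 reached 8.17 and the others lay between 6.42 and 7.36. The calls at weeks 2, 3 and 5 were lost without untreated replicate 3, at 4.13 (changes of 0.92, 1.13 and 0.96, adjusted p = 0.202, 0.0834 and 0.133), and once the beta-actin value entered the model, which left the changes at 1.36, 1.57 and 1.40 and widened their SE (adjusted p = 0.173, 0.0526 and 0.066). The call at week 5 was also lost when only the untreated and week 5 arrays were fitted (adjusted p = 0.0578).

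Ifi204 (1419603_PM_at), the DNA sensor, read 2.83, 2.86 and 4.53 in untreated kidneys, the widest spread of any member there (SD 0.97). It read 5.34, 5.59, 5.81, 5.90 and 6.14 at week 1. All treated kidneys except week 7 replicate 4, at 4.49, lay above the highest untreated kidney. The change was 2.35 ± 0.37 at week 1 (5.10-fold, adjusted p = 0.000152) and ran from 2.03 at week 5 to 2.64 at week 7, where it was 6.22-fold, with adjusted p of at most 0.00144 in every week. HIN-200 genes are close paralogs, so probes of this set may also bind transcripts of its relatives, and the value is uncertain to that extent.

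Samhd1 (1418131_PM_at), which depletes the deoxynucleotide pool, had the narrowest range of weekly changes among the 6 early risers. It read 6.09, 6.67 and 6.69 in untreated kidneys and 7.90, 7.93, 8.02, 8.05 and 8.10 at week 1. The 30 treated kidneys, from 7.11 to 8.62, were all above the untreated ones. The change was 1.52 ± 0.23 at week 1 (2.86-fold, adjusted p = 8.8e-05) and between 1.17 and 1.33 in the later weeks, with adjusted p of at most 0.00459.

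**Figure D2:**
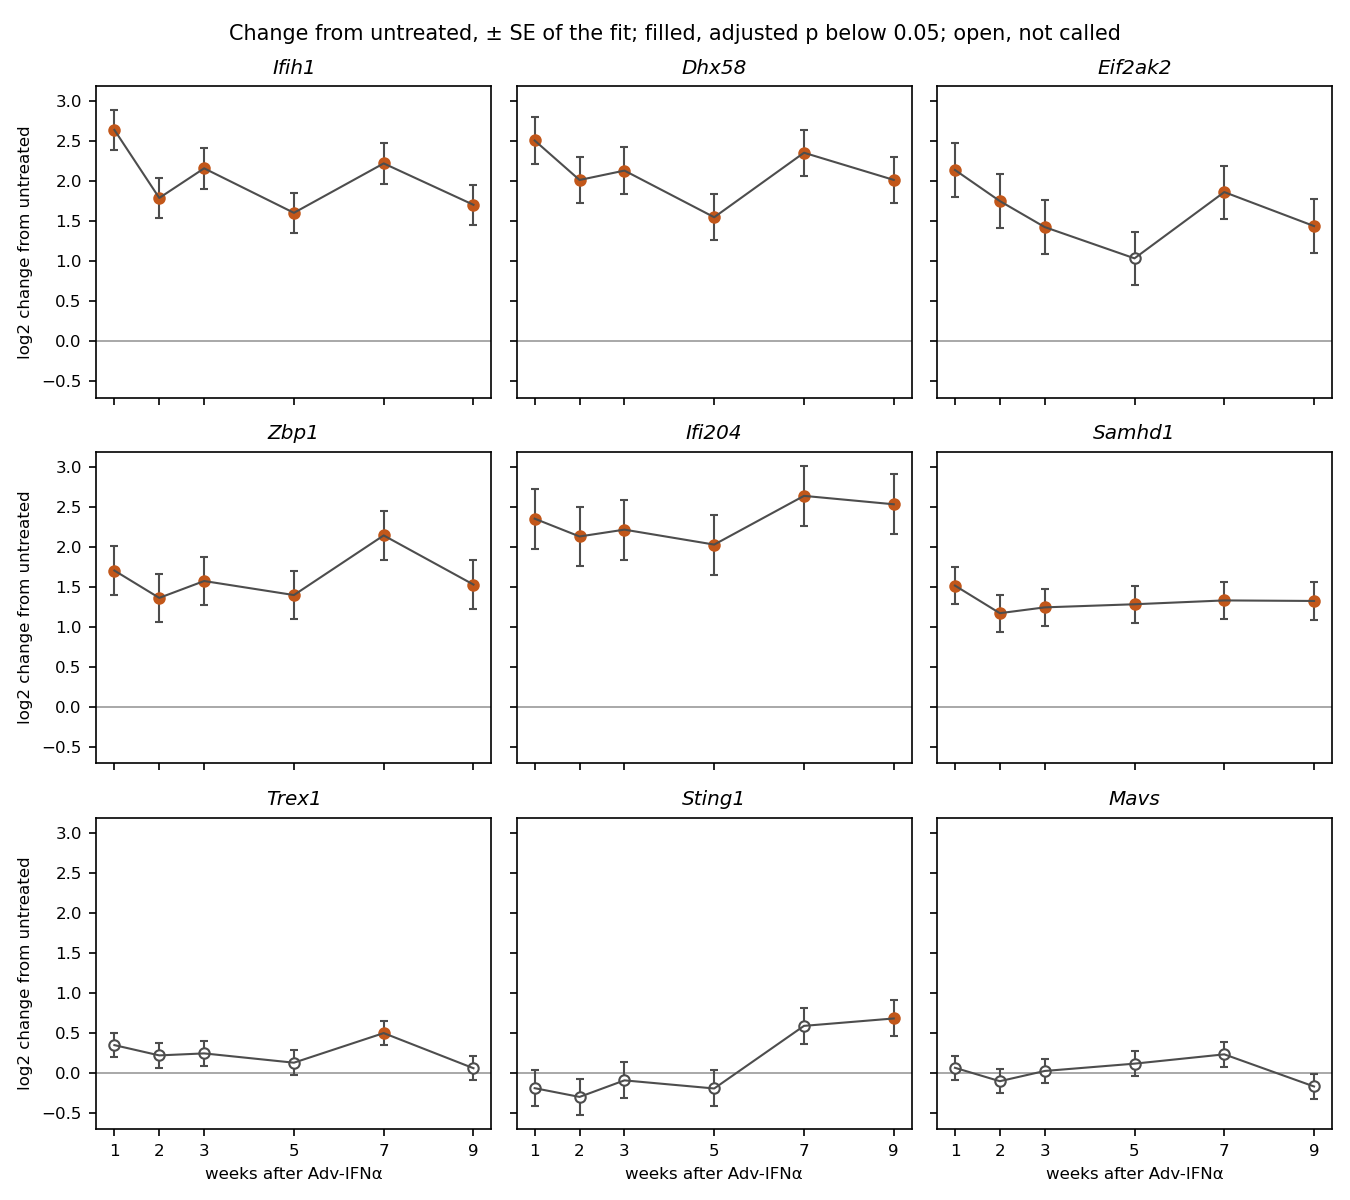
Change of each gene from untreated (y axis, log2 scale, bars ± SE of the limma fit) at weeks 1, 2, 3, 5, 7 and 9 (x axis), with filled points where the adjusted p was below 0.05. Ifih1 starts at 2.64 and Dhx58 at 2.51, while Trex1 is filled at week 7 alone, Sting1 at week 9 alone and Mavs at no week.

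Trex1 (1450672_PM_a_at), the DNA exonuclease, was called at week 7 alone. It read 4.97, 5.33 and 5.41 in untreated kidneys and 5.20, 5.68, 5.81, 5.88 and 6.10 at week 7. Replicate 4 of week 7 lay within the untreated range and the other 4 above it. The change at week 7 was 0.49 ± 0.15 (1.41-fold, adjusted p = 0.0238), and in the other weeks it lay between 0.06 and 0.34 with no call. The week 7 call was lost without untreated replicate 2 (0.36, adjusted p = 0.162), without week 7 replicate 1 (0.46, adjusted p = 0.0571), without week 7 replicate 2 (0.40, adjusted p = 0.0762) and when only the untreated and week 7 arrays were fitted (adjusted p = 0.179).

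Mavs (1451176_PM_at), the adaptor downstream of Ifih1, was called in no week. It read 5.34, 5.50 and 5.52 in untreated kidneys and 5.46, 5.46, 5.46, 5.51 and 5.70 at week 1. Of the 30 treated kidneys, which ran from 4.91 to 5.89, 10 exceeded the highest untreated kidney. The change lay between -0.17 at week 9 (adjusted p = 0.494) and 0.23 at week 7 (adjusted p = 0.342), each with an SE of 0.15.

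Sting1 (1427911_PM_at), the adaptor of DNA sensing, had another course. It read 3.81, 3.87 and 4.29 in untreated kidneys. From week 1 to week 5 its changes lay between -0.30 and -0.10 with no call, and the kidneys of those weeks ran from 3.28 to 4.29. At week 7 it read 3.93, 4.41, 4.49, 5.01 and 5.03, and at week 9 it read 4.07, 4.44, 4.46, 5.05 and 5.32. In each of these weeks 4 of 5 kidneys lay above the highest untreated kidney, and the remaining kidney lay within the untreated range. The change was 0.58 ± 0.22 at week 7 (adjusted p = 0.0744) and 0.68 ± 0.22 at week 9 (1.60-fold, adjusted p = 0.0402). The week 7 change passed without week 7 replicate 4 (0.75, adjusted p = 0.0138). The week 9 call was lost without untreated replicate 1 (0.59, adjusted p = 0.153), untreated replicate 3 (0.62, adjusted p = 0.14), the first week 9 kidney (0.51, adjusted p = 0.133) or the fourth (0.58, adjusted p = 0.106). It was also lost once the beta-actin value entered the model (0.49, adjusted p = 0.449), with only the untreated and week 9 arrays (adjusted p = 0.142) and with the replicate number as a block (0.67, adjusted p = 0.0563).

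The late rise of Sting1 was also read among the treated kidneys. The untreated arrays do not enter such a change, but they share in the variance of the fit and so in its SE and adjusted p. Between weeks 1 to 3 and weeks 7 and 9 it rose by 0.83 ± 0.13 on the log2 scale (1.78-fold, adjusted p = 6.77e-06), the sole call among the 9 members. Of all probe sets, 11.2% rose and 9.41% fell in that comparison, so a call in it is no rare event on this array. The 15 kidneys of weeks 1 to 3 ran from 3.61 to 4.26, and 8 of the 10 kidneys of weeks 7 and 9 lay above that range. The SD of Sting1 was 0.46 at week 7 and 0.51 at week 9, against 0.07 to 0.23 at weeks 1 to 3. The model holds 1 variance for all groups, so its SE and adjusted p do not carry this wider late spread. From week 5 to week 7 Sting1 rose by 0.78 ± 0.19 (adjusted p = 0.00914), a call that was lost when only the arrays of those 2 weeks were fitted. From week 1 to week 9 it rose by 0.87 ± 0.19 (adjusted p = 0.00335).

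Ifih1 went the other way over that span. From week 1 to week 9 it fell by 0.94 on the log2 scale (SE 0.22, adjusted p = 0.00491), and all 5 kidneys of week 9 (6.92 to 8.17) lay below the lowest of week 1 (8.40). Sting1 and Ifih1 were the 2 calls among the 9 members in that comparison, with 4.64% of probe sets risen and 4.64% fallen. From week 5 to week 7 all 9 members shifted upward, but only Dhx58 (0.81 ± 0.25, adjusted p = 0.0391) and Sting1 were called, against 4.72% of probe sets that rose and 3.77% that fell. Eif2ak2 (0.83, adjusted p = 0.0698), Zbp1 (0.74, adjusted p = 0.0752), Ifih1 (0.62, adjusted p = 0.0777) and Trex1 (0.37, adjusted p = 0.08) missed the threshold. The count of 2 depended on single kidneys. It was 7 without week 7 replicate 4, the kidney lowest in 7 members, and 4 without week 7 replicate 3. It was 1 without week 5 replicate 2, 3 or 5 or week 7 replicate 1, 2 or 5, and also 1 with the replicate number as a block. With only the arrays of weeks 5 and 7 fitted, 0 members were called, while 5 were called with array weights and 6 without dim probe sets.

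No member was called in the remaining steps between neighbouring weeks (limma). The share of probe sets called in either direction was 0.0999% from week 1 to 2, 0.0111% from week 2 to 3, 0.0155% from week 3 to 5 and 0.0688% from week 7 to 9, so few genes of any kind passed there. At an unadjusted p below 0.05, the members numbered 1, 0, 2 and 4 in these steps. All 9 shifted downward from week 1 to 2, by a median of -0.34, with Ifih1 at -0.85 (adjusted p = 0.15). From week 7 to 9, 8 of 9 shifted downward, by a median of -0.40.

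Some cell type markers moved in the same late weeks. The macrophage and monocyte list (12 of 12 genes measured, Adgre1, Cd68 and Csf1r among them) had 1 gene risen at week 1, 0 at weeks 2 and 3, 5 at week 5 and 9 at each of weeks 7 and 9. Its mean level per kidney was at most 4.15 in untreated, 4.04 to 4.49 over weeks 1 to 3, 4.48 to 5.09 at week 5, 4.79 to 5.74 at week 7 and 4.98 to 6.19 at week 9. The proximal tubule list (5 of 7 measured) went from 9.80 to 9.86 in untreated to 8.63 to 9.86 at week 7 and 9.04 to 9.91 at week 9, with 4 genes fallen at week 7 and 1 at week 9. Of all probe sets, 1.00% rose at week 1, 1.85% at week 5, 9.85% at week 7 and 6.41% at week 9. At weeks 7 and 9, 5.82% and 7.53% fell, so 1 fallen gene of 5 at week 9 is no rare event. At week 7, replicate 4 had both the lowest macrophage mean (4.79) and the highest proximal tubule mean (9.86), next to its low sensor values. At week 9, replicate 2 had the highest proximal tubule mean (9.91) and a macrophage mean of 5.11. Replicate 3 of week 9 had the lowest macrophage mean of that week (4.98), yet it was the lowest kidney in 0 of the 9 members. At week 9, the kidneys with the highest Sting1, replicates 1 and 4, had the highest macrophage means, 6.19 and 5.77. At week 5 the macrophage mean was above every untreated kidney while Sting1 was not called. The part of these cell types in the levels of the sensors was not tested.

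**Figure D3:**
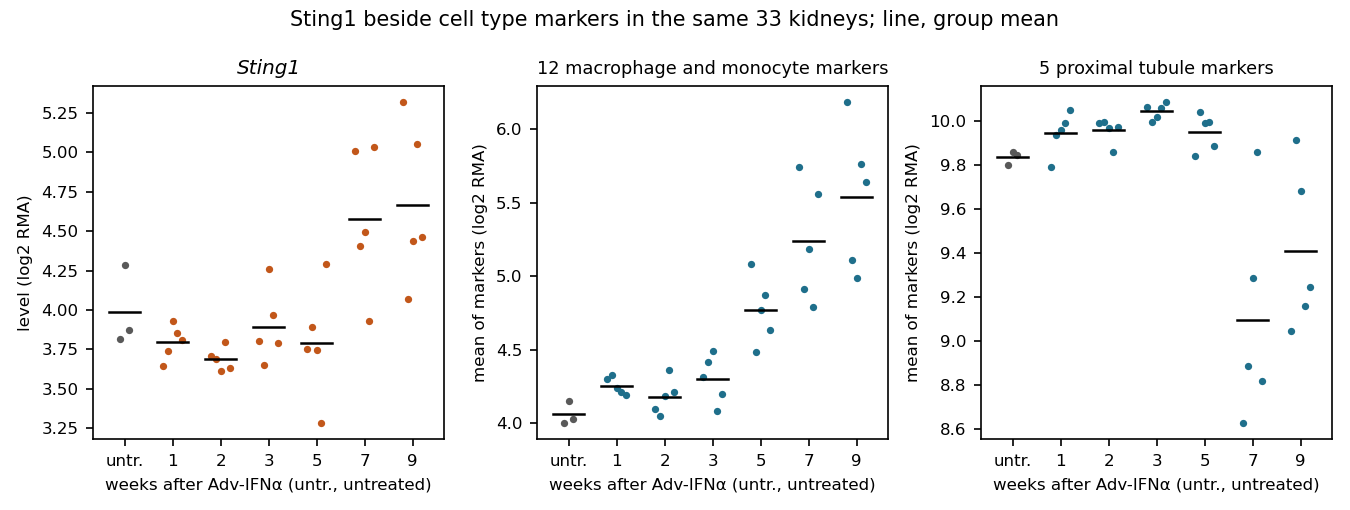
Sting1 level (left), mean of 12 macrophage and monocyte markers (middle) and mean of 5 proximal tubule markers (right) in each kidney (y axes, log2 RMA values, each with its own range), by group (x axis), with a line at the group mean. Sting1 is raised at weeks 7 and 9, the macrophage mean is above 4.48 from week 5 on, and the proximal tubule mean is spread from 8.63 to 9.91 at weeks 7 and 9.

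Of 7 T cell markers measured, 1 rose at week 7, where 9.85% of all probe sets rose, and 3 at week 9, where 6.41% did. Their mean per kidney was 3.84 to 4.18 in untreated and 4.25 to 4.83 at week 9. B and plasma cell markers (6 of 8 measured) had 1 riser, Jchain, at each of weeks 7 and 9. Of 3 dendritic cell markers measured, Itgax rose at weeks 5, 7 and 9. Neutrophil markers (6 of 7 measured) had no riser in any week, and S100a8 fell at weeks 1 and 9. All 6 were dim, with means over all arrays from 1.74 (Elane) to 3.20 (S100a9), so changes in them are hard to read. Of 5 distal tubule and collecting duct markers, 3 fell at week 7 and 2 at week 9, when 5.82% and 7.53% of all probe sets fell. Of 2 thick ascending limb markers, 0 fell at weeks 7 and 9, and Umod rose at week 9. Nphs1 fell at week 7, 1 of 4 podocyte markers measured, and Kdr fell at weeks 7 and 9, 1 of 5 endothelial markers. The mean of 3 erythroid markers ran from 6.09 to 6.65 in untreated and from 4.42 to 7.23 in week 7 kidneys, highest in replicate 4, and Slc4a1 fell at weeks 7 and 9. At weeks 1 to 3, none of the T cell, B and plasma cell, dendritic cell and neutrophil lists had a gene that rose. Over all probe sets, 1.00%, 0.877% and 1.07% rose in these weeks, so lists this short can lack a riser by their size alone. The macrophage and monocyte list had 1 riser at week 1. The part of these lists in the sensor levels was not tested either.

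The genes with the pattern most like each member over the 33 arrays, by Pearson's r on 1 probe set per gene, are given as a description. The early risers were named from calls on the same arrays, so these values are no separate test of that grouping. The untreated kidneys stand apart for the early risers, so the value over the 30 treated kidneys alone is given second. For Ifih1 the leaders were Ifit1 (0.965, 0.915), Oasl1 (0.965, 0.93) and Stat2 (0.96, 0.894), and for Dhx58 they were Oasl2 (0.957, 0.912), Oasl1 (0.946, 0.856) and Oas1g (0.944, 0.853). Zbp1 was most like Ifi47 (0.944, 0.878), Ifit2 (0.934, 0.881) and Ms4a4d (0.931, 0.877), and Eif2ak2 most like Usp18 (0.885, 0.802), the member Dhx58 (0.882, 0.8) and Ifitm3 (0.874, 0.792). Ifi204 had Dtx3l (0.923, 0.787), H2-K1 (0.917, 0.797) and Parp12 (0.916, 0.771), and Samhd1 had H2-K1 (0.907, 0.774), Oas2 (0.902, 0.749) and Xaf1 (0.89, 0.736). Most of these are well-known interferon-stimulated genes.

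Sting1 was instead most like Clu (0.889, 0.893), Samd5 (0.87, 0.891) and Aoc1 (0.866, 0.879). Clu encodes clusterin, a chaperone released by injured tubules. For Mavs the leaders were Eif4h (0.74, 0.797), Tmem128 (0.699, 0.72) and Hdlbp (0.698, 0.71), and for Trex1 they were Fanci (0.668, 0.609), Rnf135 (0.664, 0.65) and Sra1 (0.656, 0.644). Within groups, after each group's mean was removed, the 15 pairs among the 6 early risers had r from 0.524 to 0.883 (median 0.714). The 18 pairs of an early riser with Mavs, Sting1 or Trex1 had r from 0.0341 to 0.59 (median 0.35), and the 3 pairs among those 3 genes from -0.0572 to 0.277. These ranges overlapped, as Ifi204 with Trex1 (0.59) lay above the lowest pair among the early risers. With the groups pooled, kidneys that were high for an early riser thus tended to be high for the others. At week 7, replicate 1 was the highest for all 6, whereas at week 1 no replicate was the highest for more than 2.

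The wider pathway was read from 8 lists with 57 genes, of which 50 were measured. Of these 50, 12 rose at week 1, 10 at week 2, 11 at week 3, 11 at week 5, 25 at week 7 and 16 at week 9, while 1 fell at week 5, 2 at week 7 and 1 at week 9. Their median change was 0.17 at week 1 and 0.45 at week 7, well below that of the members. Over all probe sets, 1.00%, 0.877%, 1.07%, 1.85%, 9.85% and 6.41% rose at weeks 1, 2, 3, 5, 7 and 9. The higher pathway count at week 7 thus came with more risers on the whole array. Among the RNA sensors (7 measured), Ddx58, which encodes RIG-I, rose in every week, by 1.89 ± 0.19 at week 1 (adjusted p = 4.18e-08) and 1.23 at week 9. The endosomal sensor of double-stranded RNA, Tlr3, also rose in every week, by 0.59 to 1.18. Tlr7, the endosomal sensor of single-stranded RNA, rose at weeks 7 (1.37) and 9 (1.66, adjusted p = 0.000308), and Ddx60 rose at weeks 1, 3 and 7. Dhx9, Dhx36 and Tlr8 were called in none of the weeks against untreated.

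Among the DNA sensors (7 of 9 measured), the HIN-200 relatives of Ifi204 rose in every week. They were Ifi202b (2.49 ± 0.33 at week 1, 3.35 at week 7), Ifi205 (1.65 and 1.63), Ifi203 (1.18 and 1.57) and Mndal. As stated for Ifi204, probes of such close paralogs may bind transcripts of their relatives, so these rises may not be separate. Cgas, the enzyme that makes the messenger which activates Sting1, was not called at weeks 1 to 3 (changes of 0.00 to 0.04) and rose at week 5 (0.50, adjusted p = 0.0428), week 7 (0.59, adjusted p = 0.00371) and week 9 (0.55, adjusted p = 0.00832). The downstream adaptors and kinases (7 of 8 measured) had no riser until week 7. At that week Myd88 (0.75), Ikbke (0.75), Tank (0.58) and Tbk1 (0.43 ± 0.13, adjusted p = 0.0182), the kinase shared by Mavs and Sting1, rose, and Myd88 alone rose at week 9.

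**Figure D4:**
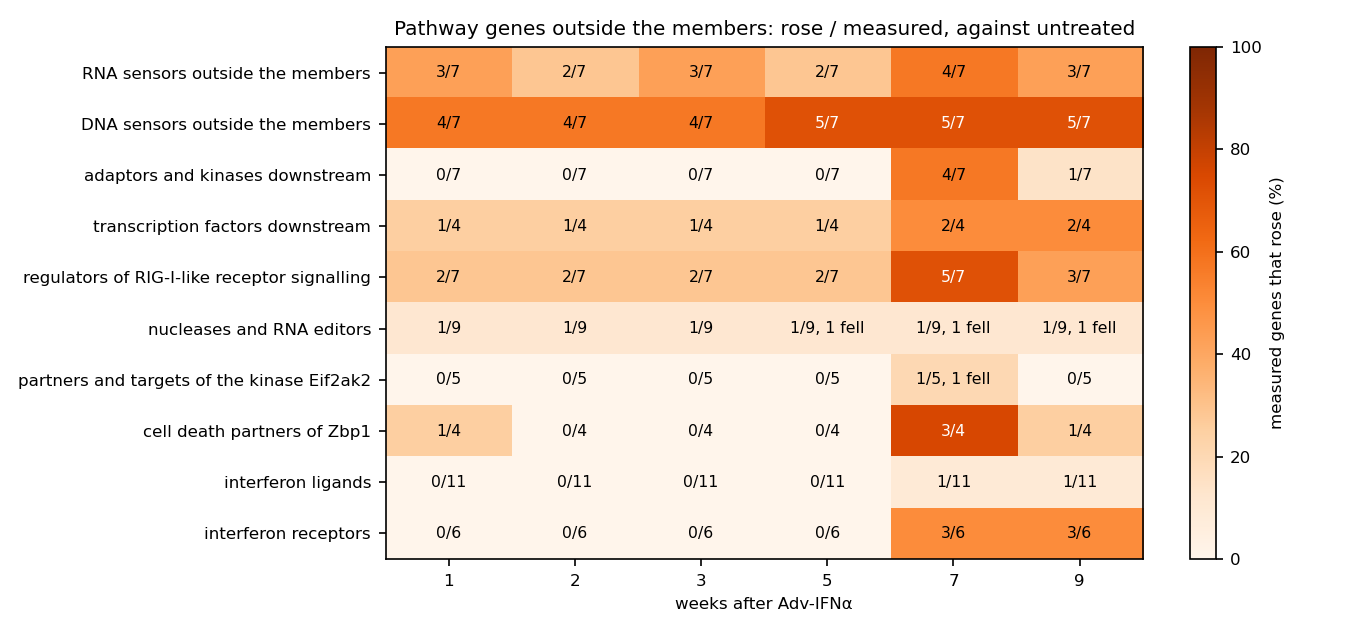
Number of genes that rose of those measured (cell text) and the same as a percent (colour, 0 to 100%) for 8 lists of pathway genes and for interferon ligands and receptors (rows) against untreated, at weeks 1, 2, 3, 5, 7 and 9 (columns). The RNA and DNA sensor lists have risers from week 1, while adaptors and kinases have 0 of 7 up to week 5 and 4 of 7 at week 7. Of all probe sets, 1.85% rose at week 5 and 9.85% at week 7.

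Of the transcription factors that the adaptors activate (4 of 5 measured), Irf7 rose by 4.36 ± 0.40 at week 1 (adjusted p = 5.21e-09) and 2.44 at week 9, and Rela rose at weeks 7 (0.67) and 9 (0.71). Irf3, which is held ready in most cells, was called in no week. Of 7 regulators of RIG-I-like receptors, Trim25, a ubiquitin ligase of RIG-I (1.06 at week 1), and Zc3hav1 (1.62 at week 1) rose in every week, and Rnf135 at weeks 7 (1.11) and 9 (0.64). Of 9 nucleases and RNA editors, Adar, which edits double-stranded RNA so that Ifih1 ignores it, rose in every week by 0.66 to 0.96. In that list Trex2, the relative of Trex1, fell by 0.77 at week 5 and by 0.47 at week 7, and Rnaseh2c fell by 0.48 at week 9. Trex2 was dim, with group means from 2.44 (week 5) to 3.21 (untreated), so its falls are hard to read. Among 5 partners and targets of Eif2ak2, only Atf4 (0.67 at week 7) rose, and its inhibitor Dnajc3 fell by 0.47 in that week. Among 4 cell death partners of Zbp1, Mlkl, the effector of necroptosis, rose at weeks 1 (1.16), 7 (1.88) and 9 (1.31), and Ripk3 (0.52) and Casp8 (0.62) at week 7.

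For 3 members a further probe set could be read beside the representative one. The second probe set of Samhd1 rose at weeks 1 (0.84), 3 (0.75), 7 (1.10) and 9 (0.83) but not at weeks 2 (0.61, adjusted p = 0.106) and 5 (0.63, adjusted p = 0.0679). That of Zbp1 changed by 1.27 to 1.99 and was called at weeks 7 and 9 only, with an SE of 0.46. Both kept the direction of the first probe set in all weeks. The 2 other probe sets of Dhx58 were dim, with means of 2.76 and 1.29 over all arrays, and were called in no week, with changes between -0.07 and 0.38. The Dhx58 calls thus rest on 1 of 3 probe sets.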

How the data were processed

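Total RNA from whole kidneys was isolated with Trizol, amplified with NuGEN Ovation reagents and hybridised to Affymetrix HT-MG-430 PM arrays per the labels. The log2 values deposited by the authors are RMA intensities, that is background-corrected, quantile-normalized and summarised per probe set. The submitters' processing notes name RMA and Partek but no version. RMA makes array distributions equal and compresses changes of dim probe sets. The log base is not written in the table and was read from its range, 0.585 to 13.9. An array has no read depth, so the number of arrays limits precision.

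The deposited values were used as they are. Of 45141 probe sets, 104 controls were left out and 45037 tested. A platform annotation paired 28898 of these with 1 symbol, 551 with several and left 15588 unnamed. Where a gene had several probe sets, the brightest one represented it. Groups came from the sample titles. One model with 7 group means over 33 arrays (26 residual degrees of freedom) was fitted with limma 3.58.1 (lmFit, eBayes) in R 4.3.3, with Benjamini-Hochberg adjustment over all probe sets of a contrast. A gene rose or fell where its adjusted p was below 0.05, with no fold limit, and the SE is that of the moderated fit. The model was tested on simulated data with independent noise, the same spread in every group and changes set at week 1 alone. That run does not bear on the late weeks or on shifts shared by many genes of 1 kidney. The members, gene lists and tests were chosen with earlier results of these data known. Named were the 9 members, up to 4 called genes per pathway list by size of change at weeks 1, 7 or 9, and the 3 genes most like each member. The genes Csf1r, Mndal, Dhx9, Dhx36, Tlr8, Irf3 and the marker genes are named outside this rule. Alternatives were a replicate block, the mean of probe sets, no dim probe sets, only the groups compared, array weights, a trended robust variance, median-centred arrays, the beta-actin ratio as a covariate, and leaving out each array.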

Additional observations from a re-analysis of the deposited data

Results flagged for a closer look

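In 4 of 54 gene and week groups of 5 kidneys, 1 kidney stood apart from the others by Dixon's test, which chance alone gives in about 1 of 20 groups. Dhx58 was lowest in week 9 replicate 2 at 4.73, with the next kidney at 5.63, and Samhd1 was lowest in the same kidney at 7.11, with the next at 7.87. Eif2ak2 was lowest in week 7 replicate 4 at 4.43, with the next at 5.72. Mavs was highest in week 1 replicate 5 at 5.70, with the next at 5.51.

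Some members differed between treated groups by limma (adjusted p below 0.05). Dhx58 was higher at week 7 than at week 5 by 0.81. Sting1 was higher at week 7 than at week 5 by 0.78, at week 9 than at week 1 by 0.87, and at weeks 7 and 9 than at weeks 1 to 3 by 0.83. Ifih1 changed by -0.94 from week 1 to week 9.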

How the results depend on the processing

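The number of members risen against untreated stayed within 1.5 times its value under every alternative run, at 6 for week 1, 4 to 6 for weeks 2 and 3, 4 to 5 for week 5, 6 to 8 for week 7 and 5 to 7 for week 9 when single arrays were left out. Counts between weeks moved more. For week 7 minus week 5, 5 members were called with array weights, 6 without dim probe sets, 0 with only the groups compared, 1 with the replicate block and 1 to 7 when single arrays were left out, the 7 without week 7 replicate 4. For week 2 minus week 1, 1 was called with array weights and 1 with only the groups compared. Leaving out single arrays gave 0 to 1 for week 9 minus week 7 and 1 to 2 for weeks 7 and 9 minus weeks 1 to 3. Changes close to 0 turned sign. Mavs stood at -0.0917 at week 1, -0.116 at week 3 and -0.0142 at week 5 with the beta-actin covariate, and at week 3 also at -0.0125 with array weights and -0.0270 with the replicate block. With single arrays left out, Mavs ran from -0.191 to 0.00293 at week 2 and -0.0701 to 0.156 at week 3, Sting1 from -0.187 to 0.0521 at week 3, and Trex1 from -0.00884 to 0.211 at week 5 and -0.0777 to 0.142 at week 9. The cause was not tested. Of 54 changes against untreated, 52 kept direction and side of the threshold with the replicate block, 51 with only the groups compared, 53 with array weights, 44 with the covariate and all 54 with each of the other alternatives that kept all arrays, as did 410 of 432 with an array left out. Replicate numbers carried no pairing (median r of same-numbered arrays -0.006, 10 of 33 closest to their own number). The untreated group has 3 arrays, which limits the precision of every change against it.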

Other observations

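Interferon genes and their receptors in the same kidneys were read as values. Of 18 interferon ligand genes listed, 11 were measured, and none was called at weeks 1 to 5 (limma). Ifna4 rose by 0.54 at week 7 (adjusted p = 0.0247) and by 0.50 at week 9 (adjusted p = 0.0394), from untreated levels of 1.54 to 1.88, which are dim on this array. Of 6 receptor genes, none was called at weeks 1 to 5. Ifngr1, a chain of the interferon-gamma receptor, rose by 0.88 at week 7 (adjusted p = 0.000721) and 0.68 at week 9, and Ifngr2, its partner chain, by 0.67 and 0.65. Ifnlr1 rose by 0.79 at week 7 and Il10rb by 0.53 at week 9.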
